A study of Mus musculus with 6 samples.

Results

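Suprabasal differentiating keratinocytes are the epidermal cells above the basal layer. Here they were the cells of mouse dorsal skin selected on their own reads: at least 30 UMIs of Krt1 and Krt10 together per 10000 UMIs of the cell (cp10k), with Krt79 under 5 cp10k, Mki67 and Top2a together under 2 UMIs, Col1a2 and Col3a1 together under 10 cp10k and no Ptprc UMI. A UMI tags 1 captured RNA molecule. The selection held 3827 of the 50850 cells that passed the quality limits, or 7.53%. The genes named in the rule chose the cells, so their levels below are descriptions without a test.

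The cells came from 6 single-cell RNA sequencing libraries of female C57BL/6 mice aged 8 to 10 weeks, with 2 libraries in each of 3 groups. The Sham group had no treatment. In the IMQ group 62.5 mg of 5% imiquimod cream was put on the shaved back daily over 4 days, with the skin taken 1 day later. The IMQ+SHP099 group was given, besides the cream, 10 mg/kg of SHP099 by mouth daily over 4 days, a compound that inhibits the phosphatase SHP2 at an allosteric site. No group received SHP099 without the cream, and each library pooled the skin of several mice, so the library was the replicate (n = 2 per group) and mice within it could not be told apart.

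Basal keratinocytes express the keratins Krt5 and Krt14 and hold the epidermis to the basement membrane. When they leave the basal layer they switch to Krt1 and Krt10, assemble desmosomes, and then make the proteins and lipids of the cornified envelope, the tough shell of the skin surface. In wounded and psoriatic epidermis the suprabasal cells are known to carry Krt6, Krt16 and Krt17 and to make antimicrobial proteins, while the last steps of cornification are altered.

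Members numbered 1993 and 474 in the Sham libraries, 317 and 148 in IMQ, with 818 and 77 in IMQ+SHP099, in the order of replicates 1 and 2. The median UMI number of a member was 12378 and 18188.5 for Sham, 34713 and 36945 for IMQ, and 24601 and 20948 when SHP099 was added. The summed UMIs of the members ran from 1544582 in IMQ+SHP099 replicate 2 to 27656859 in Sham replicate 1, so values of the former rest on the fewest cells and reads. Libraries shared 12 to 30 barcodes per pair, and 2 member barcodes were shared in all. Scrublet marked under 0.5% of the cells in the 3 libraries of replicate 1 and so gave no usable doublet call there, and doublets were not removed. Summed markers of endothelial cells reached at most 0.14 cp10k in the members of a library, those of myeloid cells 1.76 and of neutrophils 0.59. Those of fibroblasts reached 2.47 and those of pericytes and smooth muscle 2.24, against 281 to 479 for the 5 suprabasal markers. The 5 include Krt1 and Krt10, and the fibroblast markers include Col1a2 and Col3a1. Cells with Ptprc were left out as well, so the rule set part of this contrast in advance. Without the members that held 10 cp10k or more of the markers of stromal, endothelial, neural, pigment, lymphoid and myeloid cells, a limit added after seeing the data, 2424 genes were called for IMQ compared to Sham in place of 2446. A stricter limit, which removed members with 2 UMIs of these markers, took out 3294 of the 3827 cells, left 2375 genes to test and gave 120 calls. Markers of the upper hair follicle moved with treatment. Their sum over 6 genes was 10.5 and 6.95 cp10k in Sham members, 50.8 and 71.2 in IMQ, with 72.2 and 75.9 in IMQ+SHP099. Of its genes Krt17 and Defb6, described below, were higher in each imiquimod library than in Sham, Cst6 overlapped between the groups, and Krt79 was held low by the rule. The part of follicle cells in the results was not tested.

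The markers that the rule did not use fitted the label. After each cell was thinned to 2000 UMIs, which left out 77 shallower members, Krtdap was found in 85.4% or more of the members of a library, Calm4 in 89.4% to 97.3% and Sbsn in 76.6% to 91.6%. Over all depths the share with a UMI was 92.4% to 100% of members for Krtdap, 98.3% to 100% for Calm4 and 93.4% to 99.4% for Sbsn. In cells with Ptprc, which should lack these genes, it was 6.53% to 33.9%, 5.57% to 32.2% and 5.89% to 31.8%, at median depths of 1880 to 6661.5 UMIs against 12378 to 36945 in members. Lor, which encodes loricrin of the outermost living cells, was found in 4.15% or less. Of the cells near the limit, 17 members in Sham replicate 2 lay between 30 and 40 cp10k of Krt1 and Krt10 and 21 cells lay just outside, between 20 and 30. In IMQ replicate 2 these numbers were 4 and 17. The lowest value inside the limit in any library was 30.18 cp10k and the highest outside 29.98.

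Members of all 4 imiquimod libraries carried S100a8, S100a9, Krt6a, Krt6b and Krt16 in nearly every cell, had all but lost Krt77, and held more Krt14. Of 11472 genes tested, 1163 (10.1%) were higher in IMQ than in Sham and 1283 (11.2%) were lower by edgeR's quasi-likelihood test with a Benjamini-Hochberg adjusted p under 0.05. Without IMQ replicate 1 the total of 2446 genes fell to 1171, and without IMQ replicate 2 to 1303.

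The promoters of 2 genes that rose and 2 that fell, among the 10 largest changes in each direction, are shown because these genes went from near absence to high levels or the reverse. Each is the run of 250 bases before the first start listed in RefSeq (GRCm38.p6), written from 5′ to 3′ on the gene's strand, and capitals mark a letter match on either strand to TGANTCA (AP-1), TTGCNNAA (C/EBP), GGGA and CC with 4 bases between (NF-kB) or TATAAA (a core promoter element).
S100a8, chr3:90668821-90669070, plus strand: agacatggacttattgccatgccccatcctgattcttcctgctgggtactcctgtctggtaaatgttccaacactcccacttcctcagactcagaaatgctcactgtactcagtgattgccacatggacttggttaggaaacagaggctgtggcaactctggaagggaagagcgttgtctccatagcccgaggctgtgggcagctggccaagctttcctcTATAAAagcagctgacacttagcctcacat
S100a9, chr3:90695722-90695971, minus strand: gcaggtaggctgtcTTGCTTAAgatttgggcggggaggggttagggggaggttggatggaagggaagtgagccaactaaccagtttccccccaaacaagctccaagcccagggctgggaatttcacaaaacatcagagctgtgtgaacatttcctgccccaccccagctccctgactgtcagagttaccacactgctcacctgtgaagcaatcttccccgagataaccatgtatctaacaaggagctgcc
Krt77, chr15:101869706-101869955, minus strand: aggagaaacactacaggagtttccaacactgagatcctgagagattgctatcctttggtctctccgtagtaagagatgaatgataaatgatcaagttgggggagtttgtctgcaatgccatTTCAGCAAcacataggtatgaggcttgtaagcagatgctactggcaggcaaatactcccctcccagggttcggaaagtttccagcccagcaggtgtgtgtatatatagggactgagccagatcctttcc
Alox12e, chr11:70322531-70322780, minus strand: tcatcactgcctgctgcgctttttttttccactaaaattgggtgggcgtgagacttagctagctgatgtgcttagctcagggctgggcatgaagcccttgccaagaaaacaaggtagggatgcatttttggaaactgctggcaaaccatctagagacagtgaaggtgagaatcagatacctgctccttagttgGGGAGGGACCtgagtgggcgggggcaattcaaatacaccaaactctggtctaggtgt
The table held 17 of the 20 genes with the largest changes. The C/EBP letters were found before 4 of 8 genes that rose and 2 of 9 that fell, against 9.56% of all 32851 promoters in the table. The NF-kB letters were found before 0 of 8 and 3 of 9, against 17.6% of all. The AP-1 letters stood before 1 gene of each direction (6.75% of all) and TATAAA before 2 of each (12.4% of all). A match describes the letters and not a bound site.

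S100a8 and S100a9, the subunits of the antimicrobial protein calprotectin, were the genes that rose most. The level of S100a8 was 1.61 and 0.399 counts scaled to 1000000 per library (CPM) in the Sham members, 22766 and 25114 in IMQ, with 25950 and 31398 in IMQ+SHP099. The groups with imiquimod lay far above Sham and close to each other, and the log2 fold change of IMQ compared to Sham was 14.39 (SE 0.83, adjusted p = 3.18e-06). S100a9 changed by 13.85 on the log2 scale (SE 0.87, adjusted p = 3.83e-06). Skin cells with Ptprc, which include neutrophils, also held these genes, so free RNA was checked in cells that should lack them. In cells with at least 50 cp10k of Col1a2 and Col3a1 the S100a8 level was 82.5 to 745 per 1000000 UMIs in the 4 imiquimod libraries, and the members held 27.7 to 381 times as much. At 2000 UMIs per cell, S100a8 or S100a9 was found in 98.3% to 99.7% of the members with imiquimod and in 0.424% or less with Sham.

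**Figure D1:**
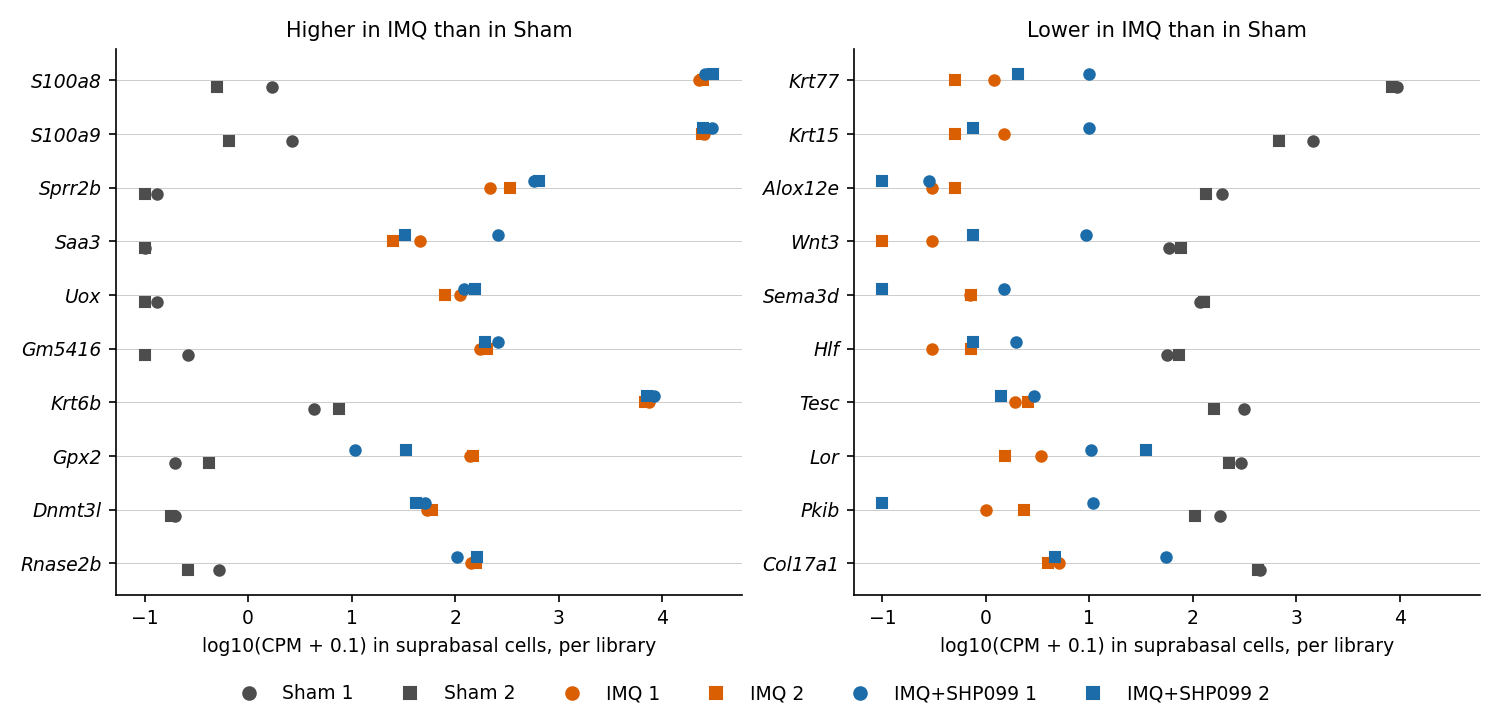
Levels of the 10 genes with the largest rise (left) and the 10 with the largest fall (right) in IMQ compared to Sham, as log10(CPM + 0.1) on the x axis; each point is the summed suprabasal cells of 1 library. The Sham points stand apart from the IMQ and IMQ+SHP099 points in every row, and both IMQ+SHP099 points of Gpx2 lie below both IMQ points.

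The other genes with large rises were of several kinds. Sprr2b, a small proline-rich protein that is cross-linked into the cornified envelope, had 1 UMI in both Sham libraries together, 220 and 337 CPM in IMQ, with 578 and 640 in IMQ+SHP099. Krt6b, a keratin of wounded epidermis, rose from 4.2 and 7.51 CPM to 7437 and 6834 (log2 10.27, SE 0.59, adjusted p = 3.18e-06). Gpx2, a glutathione peroxidase, rose from 0.098 and 0.319 CPM to 140 and 150 (log2 9.67, SE 0.69, adjusted p = 7.72e-06). Uox (urate oxidase), the stefin-like Gm5416, the DNA methylation cofactor Dnmt3l and the ribonuclease Rnase2b rose to between 52.9 and 203 CPM in the IMQ libraries from under 0.5 CPM in each Sham library. Saa3, an acute-phase protein, had no UMI in Sham members and 45.4 and 25.1 CPM in IMQ, at least 556-fold higher against a floor of 3 UMIs over the group. For Saa3 the members held 0.00200 to 0.00976 of the level of the collagen-expressing cells in the imiquimod libraries; the part of free RNA in its rise was not tested. Sprr2b and its neighbours, and Gm5416 and the stefins, belong to families of near-identical copies among which the counting could split reads, so single members of these families are uncertain.

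Krt77, a type II keratin of the suprabasal epidermis, fell most. Its level was 9391 and 8449 CPM in Sham, 1.10 and 0.408 in IMQ, with 9.78 and 1.94 in IMQ+SHP099. The log2 fold change of IMQ compared to Sham was -13.36 (SE 0.83, adjusted p = 3.83e-06). At 2000 UMIs per cell, 84.7% and 86.9% of Sham members held a Krt77 UMI, compared to 0 of 309 and 0 of 145 thinned members in IMQ and 1.75% or less with SHP099. In cells with Ptprc, which should lack the gene, the share over all depths was 33.1% and 19.4% in Sham, compared to 94.4% and 94.7% of members counted in the same way.

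The remaining genes with large falls included both differentiation and basal genes. Alox12e, an epidermal lipoxygenase, was at 192 and 133 CPM in Sham and 0.199 and 0.408 in IMQ (log2 -9.18, SE 0.48, adjusted p = 2.15e-06). Lor fell from 290 and 224 CPM to 3.29 and 1.43 (log2 -6.66, SE 0.62, adjusted p = 3.42e-05), and was at 10.3 and 34.9 in IMQ+SHP099. At least 10 cp10k of Lor was held by 40 of 1993 and 4 of 474 Sham members, and by 0 in each IMQ library. Its 95th percentile over Sham members was 1.11 and 0.524 cp10k, so the Sham level of Lor rested on a small part of the members. Krt15, a basal and hair follicle keratin, fell from 1436 and 684 CPM to 1.39 and 0.408 (log2 -10.01, SE 0.88, adjusted p = 2.51e-05). The hemidesmosome collagen Col17a1 fell from 447 and 425 to 4.98 and 3.87 (log2 -6.60, SE 0.81, adjusted p = 0.000213). Scaled to the UMIs of the cells, Sham cells with Ptprc held 3242 and 285 of Krt15, against 1583 and 894 in Sham members. For Col17a1 these levels were 1006 and 120, against 492 and 555. The members of Sham replicate 1 thus lay below the cells with Ptprc, and those of replicate 2 above. The part of free RNA in the Sham levels, and so in both falls, was not tested. The Wnt ligand Wnt3 had 58.2 and 77.5 CPM in Sham and 2 UMIs in both IMQ libraries together, 477-fold less with a counting interval of 132 to 3939. Sema3d, Hlf, Tesc and Pkib fell to 2.45 CPM or less in each IMQ library from 56.4 CPM or more in each Sham library.

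The 2 keratins that chose the cells shifted against each other. Krt10 was at 15980 and 16865 CPM in Sham, 6663 and 3687 in IMQ, with 5194 and 7807 in IMQ+SHP099. Krt1 was at 6154 and 7243 CPM in Sham, 13859 and 12065 in IMQ, with 11973 and 17664 in IMQ+SHP099. Krt10 was higher in both Sham libraries than in any library with imiquimod, and Krt1 was lower. The number of Krt1 UMIs per Krt10 UMI went from 0.385 and 0.430 in Sham to 2.08 and 3.27 in IMQ and to 2.31 and 2.26 in IMQ+SHP099. The UMI counts of 3′ ends carry no term for gene length. Mki67 stayed at 3.68 CPM or less, Krt79 at 22.2 or less and Ptprc at 0 UMIs, as the rule imposed.

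Krt14 was higher in the suprabasal cells of treated skin, and Krt5 did not rise with it. Krt14 was at 1953 and 2247 CPM in Sham, 15823 and 17149 in IMQ, with 18153 and 12364 in IMQ+SHP099, and the change with IMQ was 2.97 on the log2 scale (SE 0.42, adjusted p = 0.000548). Krt5 was at 1647 and 1741 CPM in Sham and 1268 and 1439 in IMQ, a log2 difference of -0.32 (SE 0.60) that did not pass the test (adjusted p = 0.747). Cells with at least 30 cp10k of Krt5 and Krt14 made up 30.3% and 35.2% of the members in Sham, 92.7% and 96.6% in IMQ, with 93.8% and 81.8% in IMQ+SHP099. The libraries of IMQ and Sham did not overlap (exact two-sided permutation p = 0.333, the smallest that 2 libraries against 2 can give). Members of Sham and of treated skin thus differed in how many held this much basal keratin RNA. Each gene group below is therefore also given for the members with at least 30 cp10k of Krt5 and Krt14 alone, an alternative added after seeing the data.

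**Figure D2:**
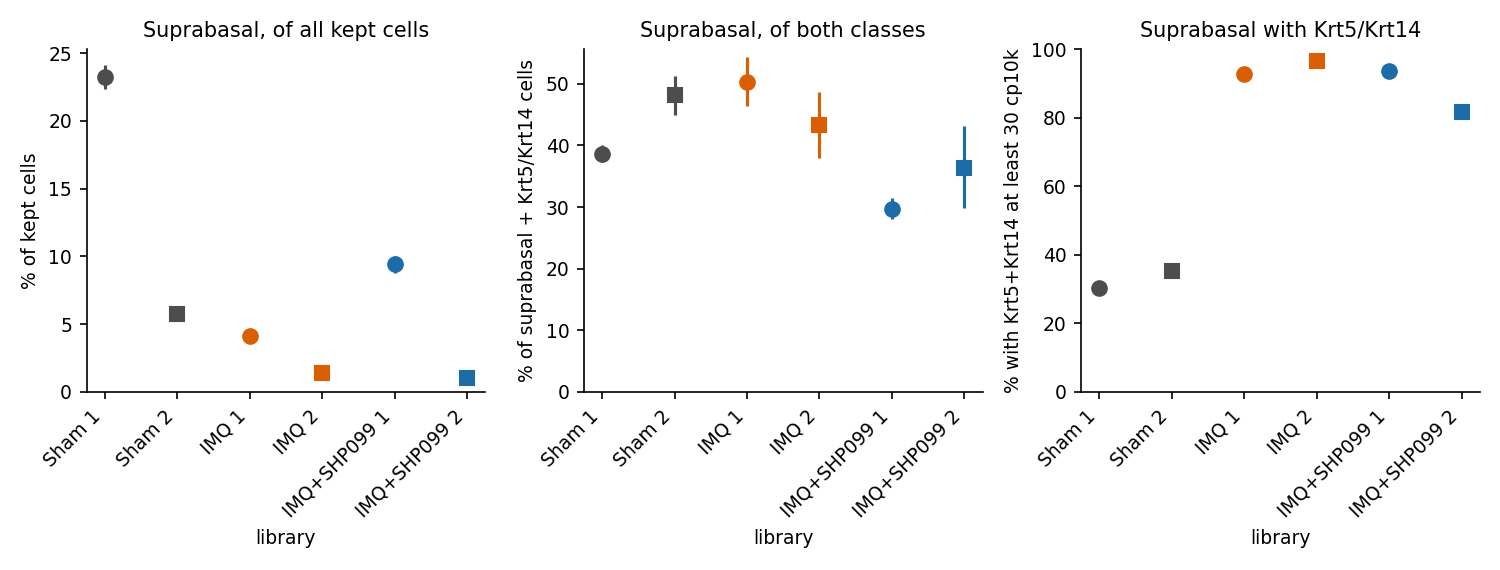
Share of suprabasal cells among all kept cells (left), among suprabasal and Krt5/Krt14 cells (middle), and share of suprabasal cells that also held at least 30 cp10k of Krt5 and Krt14 (right), in percent per library on axes from 0; vertical bars in the left and middle panels are exact 95% intervals for counting error. The right panel shows 30.3% and 35.2% in Sham against 81.8% to 96.6% in the 4 imiquimod libraries.

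Gene groups are described by how many of their tested genes passed the test in each direction. Among all genes tested 10.1% were higher and 11.2% lower, with a median log2 change of -0.04. In the members with Krt5 and Krt14 alone, 1183 genes were higher and 1399 lower of 10882 tested, also with a median of -0.04. Setting genes without a UMI in a group to their bound left every list median as given.

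Spinous layer genes fell or did not pass. Of 18 tested, 0 were higher and 8 lower, with a median log2 change of -0.76. Beside Krt77 these were Skint5, Krt2, Calm5, Krt78, Mt4, Krt80 and Ptgs1. Mt4, the metallothionein of stratified epithelia, fell from 1184 and 1219 CPM to 59.4 and 19.8 (log2 -4.91, SE 0.52, adjusted p = 7.93e-05). Skint5, a relative of the Skint1 selecting molecule of epidermal T cells, had 67.8 and 36.7 CPM in Sham and 0 UMIs in IMQ, at least 293-fold lower. Krtdap, Sbsn, Calm4 and the galectin Lgals7 differed by -0.22, -0.88, 0.12 and 0.85 on the log2 scale and did not pass. In members with Krt5 and Krt14, 3 spinous genes were higher and 6 lower of 17.

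The cornified envelope genes split. Of 39 tested, 20 were higher and 11 lower, with a median of 2.70. The genes that rose were mainly small proline-rich proteins and the transglutaminases that cross-link them: Sprr1b went from 288 and 184 CPM to 4019 and 3979 (log2 4.08, SE 0.42, adjusted p = 6.47e-05), and Tgm1 from 25.9 and 23.6 to 173 and 148 (log2 2.70, SE 0.29, adjusted p = 9.38e-05). Casp14, Cnfn, Tchhl1, Lce1f, Lce3e and Lce3f were also called higher. Flg2, Lce1m, Lor, Kprp, Cdsn, Hrnr, Scel, Flg, Ecm1, Ppl and Ivl fell. Flg2 had 42.4 and 46.4 CPM in Sham and 0 UMIs in IMQ, at least 217-fold lower, and Flg, the filaggrin precursor, fell from 91.3 and 84.4 CPM to 33.3 and 19.2 (log2 -1.73, SE 0.31, adjusted p = 0.00224). This fall depended on which cells were counted: among members with Krt5 and Krt14, 25 genes were higher and 3 lower of 33, Flg turned to 2.03 on the log2 scale (adjusted p = 0.0565), Ivl was called higher (2.10, adjusted p = 0.017), and Lor remained lower (-1.73, adjusted p = 0.037).

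Wound keratins rose together, 4 of 5 tested with a median of 4.74. Krt16 went from 990 and 293 CPM to 14837 and 14614 (log2 4.52, SE 0.60, adjusted p = 0.000369), Krt6a from 30.2 and 25.4 to 5962 and 7439 (log2 7.91, SE 0.51), and Krt17 from 202 and 147 to 4039 and 5282 (log2 4.74, SE 0.45). Krt16 was found in 36.7% and 19.3% of Sham members at 2000 UMIs and in 97.1% or more of the members with imiquimod. Over all depths, where the cells with Ptprc were shallower, the share was 54.4% and 32.1% of Sham members against 21.0% and 2.46% of Sham cells with Ptprc, and 98.7% or more of imiquimod members against 10.2% to 40.5%. How much of the share in Sham members was free RNA was not tested. When members with Krt5 and Krt14 were taken alone, 4 of 4 were higher.

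**Figure D3:**
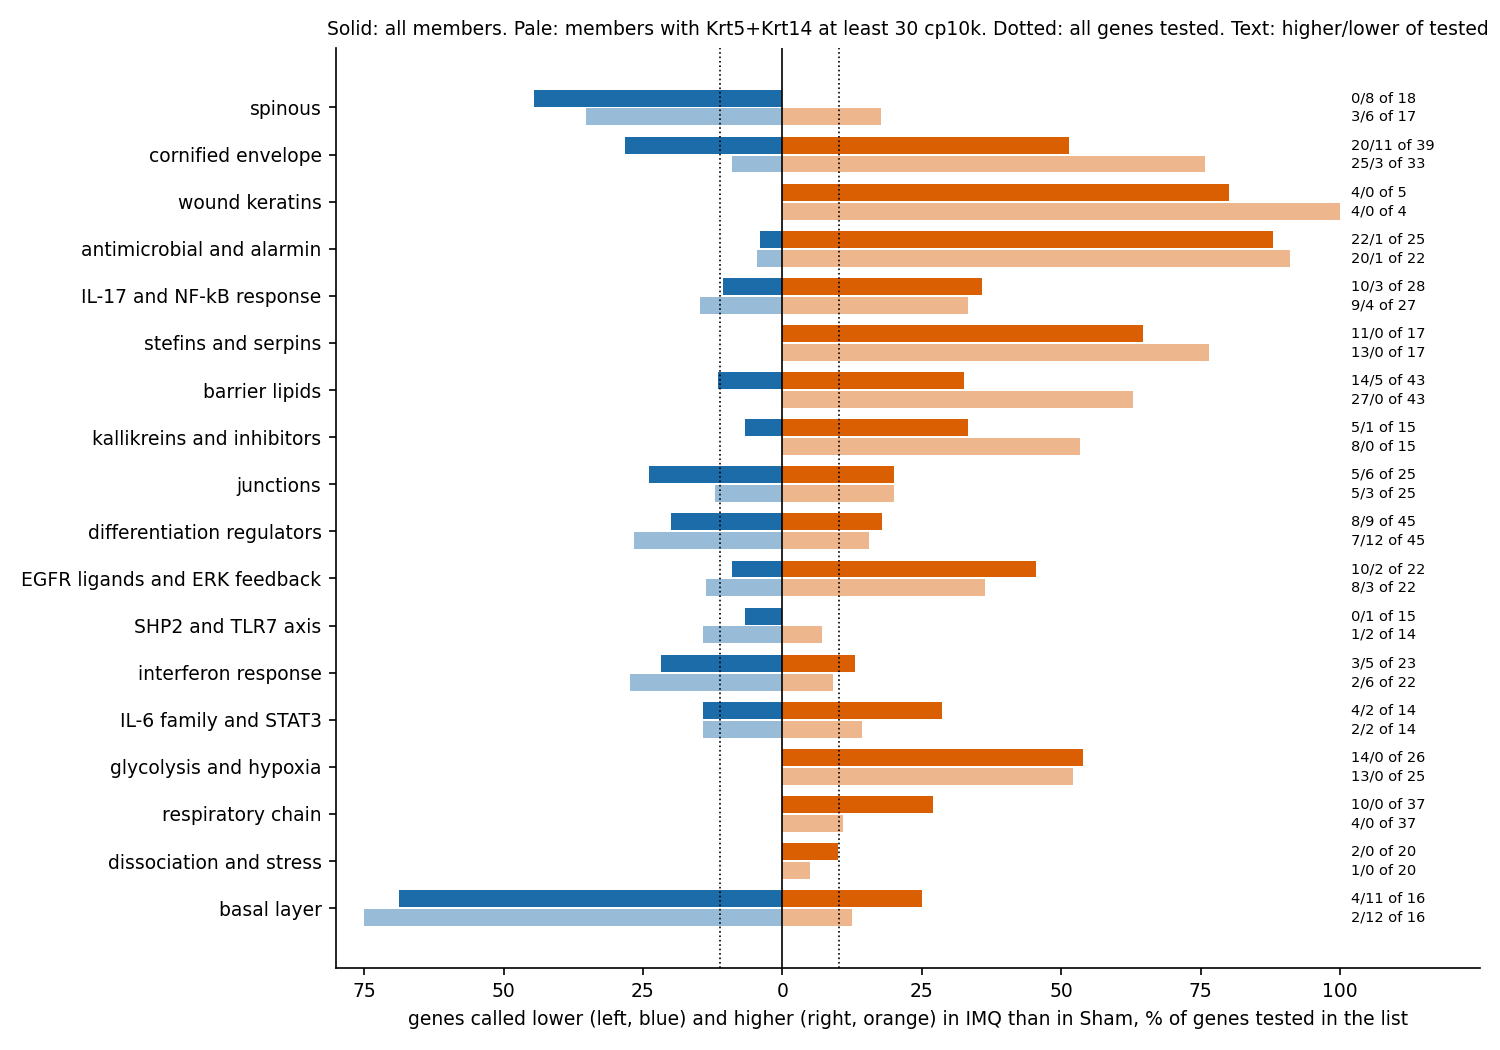
Percent of the tested genes of each list that were called higher (right, orange) or lower (left, blue) in IMQ than in Sham. Solid bars are all suprabasal cells, and pale bars are those with at least 30 cp10k of Krt5 and Krt14. Dotted lines mark all genes tested in all suprabasal cells, at 10.1% higher and 11.2% lower. The antimicrobial, wound keratin and stefin lists reach far right of the line in both sets, the basal layer list far left, and the barrier lipid list has 14 higher and 5 lower in all cells but 27 higher and 0 lower in the second set.

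Antimicrobial and alarmin genes rose, 22 higher and 1 lower of 25, with a median of 4.16. Beside calprotectin, the secretory protease inhibitor Slpi went from 5.02 and 2.24 CPM to 253 and 462 (log2 6.57, SE 0.75, adjusted p = 0.000131). Slpi was at 235 and 430 in IMQ members, scaled to the UMIs of the cells, against 599 and 929 in IMQ cells with Ptprc. With SHP099 these levels were 945 and 295, against 340 and 961. Members held 4.57 to 15.3 times the Slpi level of the collagen-expressing cells in the imiquimod libraries. How much of the Slpi rise was free RNA was not tested. The beta-defensin Defb6 went from 120 and 24.0 CPM to 897 and 1530 (log2 4.07, SE 0.69, adjusted p = 0.00172). The interleukin-36 gene listed as Il1f9 rose from 16.3 and 8.46 CPM to 202 and 214 (log2 4.06, SE 0.43, adjusted p = 8.43e-05). Lcn2 rose from 0.558 and 0.240 CPM to 187 and 181, and the members held 0.0673 to 0.209 of the level of the collagen-expressing cells in the imiquimod libraries, so the part of free RNA in this rise was not tested. Wfdc21 fell, from 82.6 and 55.1 CPM to 0.897 and 0.816. Among members with Krt5 and Krt14, 20 were higher and 1 lower of 22.

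IL-17 and NF-kB response genes were higher in 10 and lower in 3 of 28, with a median of 0.89. The chemokine Ccl20, which attracts CCR6 cells, rose from 4.46 and 27.2 CPM to 280 and 459 (log2 4.57, SE 0.89, adjusted p = 0.00413). Ccl27a is the chemokine that normal keratinocytes make to draw skin-homing T cells. It fell from 350 and 141 CPM to 8.67 and 10.4 (log2 -4.70, SE 0.45, adjusted p = 4.40e-05). Scaled to the UMIs of the cells, Sham cells with Ptprc held 687 and 53.7 of Ccl27a, against 386 and 185 in Sham members. The part of free RNA in the Sham level of Ccl27a, and so in its fall, was not tested. Cxcl2 rose to 246 and 175 CPM, and its level in the members was 1.17 to 2.62 times that of the collagen-expressing cells in the imiquimod libraries. Cxcl2 was at 229 and 163 in IMQ members, scaled to the UMIs of the cells, against 3871 and 3263 in IMQ cells with Ptprc. With SHP099 these levels were 302 and 268, against 3576 and 4109. How much of the Cxcl2 rise was free RNA was not tested. The interleukin-20 receptor chains Il20ra and Il20rb fell, while Nfkbia and Nfkbiz differed by 0.67 and 0.84 and did not pass. In members with Krt5 and Krt14, 9 were higher and 4 lower of 27.

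Stefins and serpins, inhibitors of cysteine and serine proteases, were higher in 11 and lower in 0 of 17, with a median of 3.43. BC100530, a stefin A gene, rose from 820 and 500 CPM to 18248 and 17996 (log2 4.78, SE 0.50, adjusted p = 7.93e-05). Stfa1 and Stfa3 rose to between 4295 and 5395 CPM. The kallikreins, the proteases that shed the outer layer, and their inhibitors moved both ways, 5 higher and 1 lower of 15, median 0.50. Klk13 went from 3.08 and 4.39 CPM to 173 and 140 (log2 5.41, SE 0.37), and Klk5 from 168 and 103 to 7.97 and 18.1 (log2 -3.42, SE 0.42). When members with Krt5 and Krt14 were taken alone the counts were 13 and 0 of 17 for stefins and serpins and 8 and 0 of 15 for kallikreins, and Klk5 no longer passed (-0.53, adjusted p = 0.524).

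Barrier lipid genes were higher in 14 and lower in 5 of 43, with a median of 0.23. Fabp5, the epidermal fatty acid binding protein, rose from 1865 and 1294 CPM to 39973 and 39096 (log2 4.65, SE 0.52, adjusted p = 0.000115). Alox12 and Psapl1 fell by 1.67 and 1.59 on the log2 scale, whereas the very-long-chain elongase Elovl4 stayed at 586 and 488 CPM in Sham and 542 and 463 in IMQ. Among members with Krt5 and Krt14, 27 were higher and 0 lower of 43, and Alox12 (0.74) and Psapl1 (0.73) did not pass.

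Basal layer genes were lower in 11 and higher in 4 of 16, with a median of -2.20. Among those that fell, Itga6, Itgb4, Dst and Col17a1 belong to the hemidesmosomes that hold the cell to the basement membrane, and Krt15 and Postn fell too. The integrin Itga6 fell from 112 and 215 CPM to 17.0 and 18.1 (log2 -3.22, SE 0.36, adjusted p = 0.000127). Krt14, Tnc, Sostdc1 and Cdh3 rose. The part of free RNA in the Sham levels of the genes that fell was not tested. In members with Krt5 and Krt14, 12 were lower and 2 higher of 16. These counts include Krt5 (lower) and Krt14 (higher), on which those members were chosen, so the calls of both are not tests.

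Cell junction genes were higher in 5 and lower in 6 of 25, with a median of -0.03. The connexins Gjb2 and Gjb6 rose, Gjb2 from 50.1 and 28.0 CPM to 1001 and 821 (log2 4.54, SE 0.42, adjusted p = 3.29e-05), and Gjb5 fell. The desmosome genes Dsp, Jup and Pkp1 differed by -0.22, 0.00 and -0.06 and did not pass. When members with Krt5 and Krt14 were taken alone, 5 were higher and 3 lower of 25.

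Differentiation regulators, 8 higher and 9 lower of 45, lay nearer the share of all genes than the groups above, with a median of -0.14. Prdm1, which encodes the repressor BLIMP1, rose from 22.6 and 5.03 CPM to 195 and 174 (log2 3.71, SE 0.56, adjusted p = 0.000822). The hair follicle factor Sox9 rose from 16.9 and 8.07 to 123 and 158. The Notch ligand Jag2 fell from 13.4 and 11.7 CPM to 3 UMIs in both IMQ libraries, and Klf4 and Klf5 differed by 0.45 and 0.04 and did not pass. Among members with Krt5 and Krt14 the counts were 7 higher and 12 lower of 45.

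Genes of the EGFR and ERK pathway were higher in 10 and lower in 2 of 22, with a median of 0.60. The ligands led: Areg rose from 51.4 and 41.1 CPM to 924 and 786 (log2 4.21, SE 0.45, adjusted p = 9.34e-05), and Ereg, Epgn, Tgfa, Hbegf and Btc were also called. Spred2 and Lrig1, inhibitors of the pathway, fell. Of the SHP2 and TLR7 genes, 0 were higher and 1 lower of 15, with a median of -0.48. Ptpn6, which encodes SHP1, fell from 14.1 and 13.2 CPM to 6.77 and 6.93 (log2 -0.99, SE 0.29, adjusted p = 0.0315). Ptpn11, which encodes SHP2, was at 36.3 and 42.4 CPM in Sham, 28.5 and 27.9 in IMQ, with 31.3 and 37.5 in IMQ+SHP099, a log2 difference of -0.48 (SE 0.25) between IMQ and Sham that did not pass (adjusted p = 0.196). Tlr7 had no UMI in the members of any library. In members with Krt5 and Krt14 the EGFR and ERK genes counted 8 higher and 3 lower of 22, and the SHP2 and TLR7 genes 1 higher and 2 lower of 14.

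Glycolysis and hypoxia genes rose without exception among those called, 14 higher and 0 lower of 26, with a median of 1.44. Gapdh went from 607 and 467 CPM to 2372 and 2186 (log2 2.09, SE 0.44, adjusted p = 0.00645), and Hk2, the first enzyme of the pathway, from 22.2 and 36.5 to 244 and 194 (log2 2.90, SE 0.34, adjusted p = 0.000163). Respiratory chain genes were higher in 10 and lower in 0 of 37, with a median of 0.83, Ndufa4 among them (log2 1.72, SE 0.44, adjusted p = 0.0178). When members with Krt5 and Krt14 were taken alone the counts were 13 and 0 of 25 for glycolysis and 4 and 0 of 37 for the respiratory chain.

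The interferon list moved both ways, 3 higher and 5 lower of 23, with a median of -0.65. Cxcl9 had 2 UMIs in both Sham libraries and 11.1 and 5.50 CPM in IMQ. A Cxcl9 UMI was found in 1.89% and 2.70% of IMQ members (median depth 34713 and 36945 UMIs) and in 1.83% and 3.13% of the collagen-expressing cells of these libraries (10221 and 10384 UMIs). Per 1000000 UMIs it was at 10.3 in members and 3.17 in collagen-expressing cells of IMQ replicate 1, and at 5.13 and 7.11 in replicate 2, so the members of replicate 2 did not exceed that background. Usp18, an inhibitor of interferon signaling, had 3.51 and 6.79 CPM in Sham and 0 UMIs in IMQ, at least 22.2-fold lower. Among IL-6 family and STAT3 genes 4 were higher and 2 lower of 14 (median 0.52), with the feedback inhibitor Socs1 rising from 2.92 and 5.59 CPM to 39.6 and 25.7 and the receptor Il6ra falling from 75.7 and 78.7 to 8.07 and 4.49. Genes that dissociation is known to induce were higher in 2 and lower in 0 of 20 (median 0.32), and Fos and Jun differed by 0.43 and 0.05 and did not pass. Among members with Krt5 and Krt14 the counts were 2 higher and 6 lower of 22 for interferon, 2 and 2 of 14 for IL-6 and STAT3, and 1 and 0 of 20 for dissociation.

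The second question was which of these levels differed when SHP099 was given with the cream. None of the 11472 genes passed in IMQ+SHP099 compared to IMQ (0%) by edgeR's quasi-likelihood test without a block for replicate number, a choice on which the calls of single genes depended. At an unadjusted p under 0.05 there were 422 genes. DESeq2 called 9, and edgeR with that block called 27. In the fit without the block, 0 genes were called in any of the 18 gene groups. Their medians ran from -0.07 to 0.73 on the log2 scale beside 0.01 for all genes tested. The antimicrobial list had a median of 0.28, the wound keratins 0.25, the IL-17 and NF-kB response 0.33, and the basal layer 0.73. With 77 members in IMQ+SHP099 replicate 2 the comparison rests on few cells, and a p that misses the threshold does not show that the groups were alike. For S100a8 the log2 difference was 0.26 with an SE of 0.48, and for Krt16 0.25 with an SE of 0.52.

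Single genes stood out before adjustment. Gpx2 was at 140 and 150 CPM in IMQ, with 10.7 and 33.6 in IMQ+SHP099, with Sham at 0.098 and 0.319. The log2 difference was -2.89 (SE 0.47), which did not pass by edgeR (adjusted p = 0.295) and passed by DESeq2 (adjusted p = 1.75e-05). Akr1c18, a steroid-metabolizing reductase, was at 57.3 and 106 CPM in IMQ, 10.6 and 15.5 in IMQ+SHP099 and 6.63 and 1.28 in Sham, and these fits did not call it (log2 -2.72, SE 0.58, adjusted p = 0.657 by edgeR and 1 by DESeq2). Cxcl9 was at 0.845 and 1.94 CPM in IMQ+SHP099, a log2 difference of -2.99 from IMQ (SE 0.63, adjusted p = 0.657), with a UMI in 0.122% and 1.30% of the members given SHP099, beside the background described above. For these 3 genes neither library with SHP099 reached the lower IMQ library.

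In the other direction Lor was at 3.29 and 1.43 CPM in IMQ, with 10.3 and 34.9 in IMQ+SHP099 (log2 2.98, SE 0.59), which did not pass by edgeR (adjusted p = 0.635) and passed by DESeq2 (adjusted p = 2.94e-05). Its level with SHP099 stayed below the 290 and 224 CPM of Sham. At least 10 cp10k of Lor was held by 1 of 818 and 1 of 77 members with SHP099, against 0 in each IMQ library. A Lor UMI was found in 2.20% and 6.49% of members with SHP099 and in 3.79% and 4.05% with IMQ. The Lor levels with SHP099 thus rested on few cells. Wnt3 was at 9.12 and 0.646 CPM in IMQ+SHP099, against 2 UMIs in IMQ (adjusted p = 0.295), with 151 of its 152 UMIs in replicate 1. Krt77 also was highest in replicate 1 with 9.78 CPM. Krt15 and Col17a1 followed the same order, with 54.6 CPM of Col17a1 in replicate 1 and 4.52 in replicate 2. Nt5e, the ecto-enzyme CD73, and Gadl1 were named after their values were seen: Nt5e was at 11.9 and 15.5 CPM in IMQ, with 1.51 and 2.59 in IMQ+SHP099, and Gadl1 at 3.19 and 2.04 and then 12.8 and 8.40 (adjusted p = 0.295 for both by edgeR, and 0.00542 and 0.00845 by DESeq2).

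**Figure D4:**
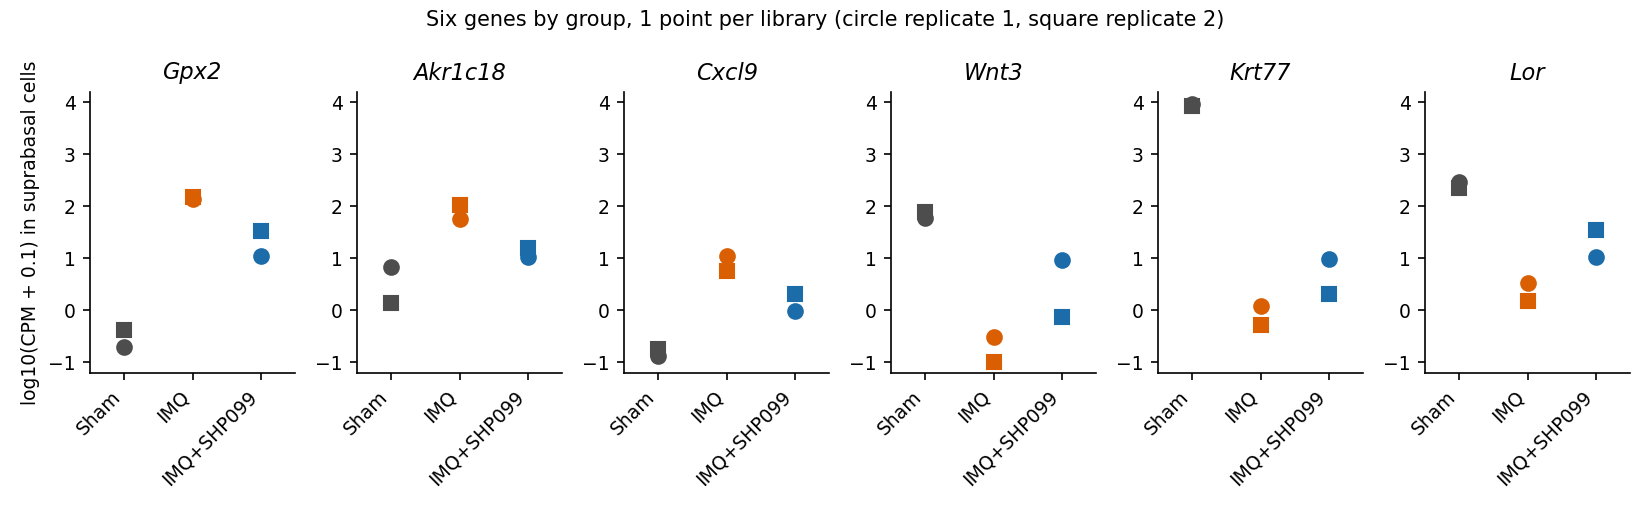
Levels of 6 genes in the summed suprabasal cells of each library, as log10(CPM + 0.1), by group; circles are replicate 1 and squares replicate 2. Gpx2, Akr1c18 and Cxcl9 are lower in both IMQ+SHP099 libraries than in either IMQ library, and Wnt3, Krt77 and Lor are higher, with Krt77 and Lor still far below Sham; the genes were picked after their values were seen, and none passed by edgeR without a block for replicate number.

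IMQ+SHP099 and IMQ were compared with the same Sham libraries, so the next values are not independent of those above. In IMQ+SHP099 compared to Sham, 1078 genes (9.4%) were higher and 1175 (10.2%) lower. Without IMQ+SHP099 replicate 1 the total of 2253 fell to 1236. Krt77 changed by -10.27 on the log2 scale compared to -13.36 with IMQ, S100a8 by 14.65 compared to 14.39, and Krt6b by 10.39 compared to 10.27. Antimicrobial genes counted 20 higher and 1 lower of 25, glycolysis 19 and 0 of 26, cornified envelope 24 and 9 of 39, and the basal layer 3 and 9 of 16.

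The IMQ response of the suprabasal cells was compared with that of 6246 other keratinocytes. These had at least 30 cp10k of Krt5 and Krt14 and under 30 of Krt1 and Krt10. The test took the difference of the IMQ change between both classes within libraries. Of 12517 genes, 525 (4.19%) changed more positively in the suprabasal cells and 833 (6.65%) more negatively. Without Sham replicate 1 the total of 1358 genes was 833, and without IMQ replicate 1 it was 875. The Krt5/Krt14 cells of imiquimod skin were not basal in their RNA alone. Krtdap was at 140 and 51.2 CPM in these cells in Sham and at 4378 and 3518 in IMQ, and Fabp5 at 46.1 and 54.7 and then at 25007 and 19572. For Krtdap the difference between classes was -5.74 (adjusted p = 6.06e-08), with a log2 change of -0.22 in the suprabasal cells. A more negative difference thus need not be a fall in the suprabasal cells, where 14 of 43 barrier lipid genes were higher and 5 lower. Krt14 and Krt10, which set the limits of both classes, moved with imiquimod. How far a change in which cells entered the Krt5/Krt14 class made up these differences was not tested.

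By group, 30 of 44 barrier lipid genes changed more negatively in the suprabasal cells and 2 more positively. In the same order the counts were 19 and 1 of 41 cornified envelope genes, 11 and 0 of 18 spinous genes and 12 and 2 of 28 junction genes. For the basal layer genes they were 9 and 4 of 16. That list includes Krt5 and Krt14, which chose the Krt5/Krt14 cells. Krt14 was among the 4 more positive, so its call is not a test. Other groups went the opposite way or both ways: 8 of 20 dissociation and stress genes changed more positively in the suprabasal cells and 0 more negatively, as did 8 and 1 of 30 IL-17 and NF-kB response genes, 5 and 0 of 14 IL-6 and STAT3 genes, 5 and 0 of 26 interferon genes and 6 and 3 of 24 EGFR and ERK genes. Those called among the dissociation genes were Dusp1, Nr4a1, Egr1, Klf6, Atf3, Btg2, Zfp36 and Fosb, and the part of dissociation in the differences between classes was not tested. The antimicrobial list had 2 more positive and 8 more negative of 26, stefins and serpins 2 and 8 of 18, kallikreins and inhibitors 0 and 8 of 16, regulators 8 and 7 of 45, wound keratins 1 and 2 of 7, and the SHP2 and TLR7 genes 0 and 0 of 16. Krt15 and Col17a1 fell in both classes, by far more in the suprabasal cells (differences of -5.95 and -3.90, adjusted p = 2.74e-05 and 8.94e-05). In the Krt5/Krt14 cells Col17a1 was still at 230 and 215 CPM in IMQ. The part of free RNA in the Sham levels of Krt15 and Col17a1 was not tested. Krt14, on which the Krt5/Krt14 cells were chosen, was at 18347 and 12984 CPM in those cells in IMQ, a level given without a test. For the glycolysis list 4 and 0 of 26 and for the respiratory chain 0 and 0 of 37 differed between classes.

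**Figure D5:**
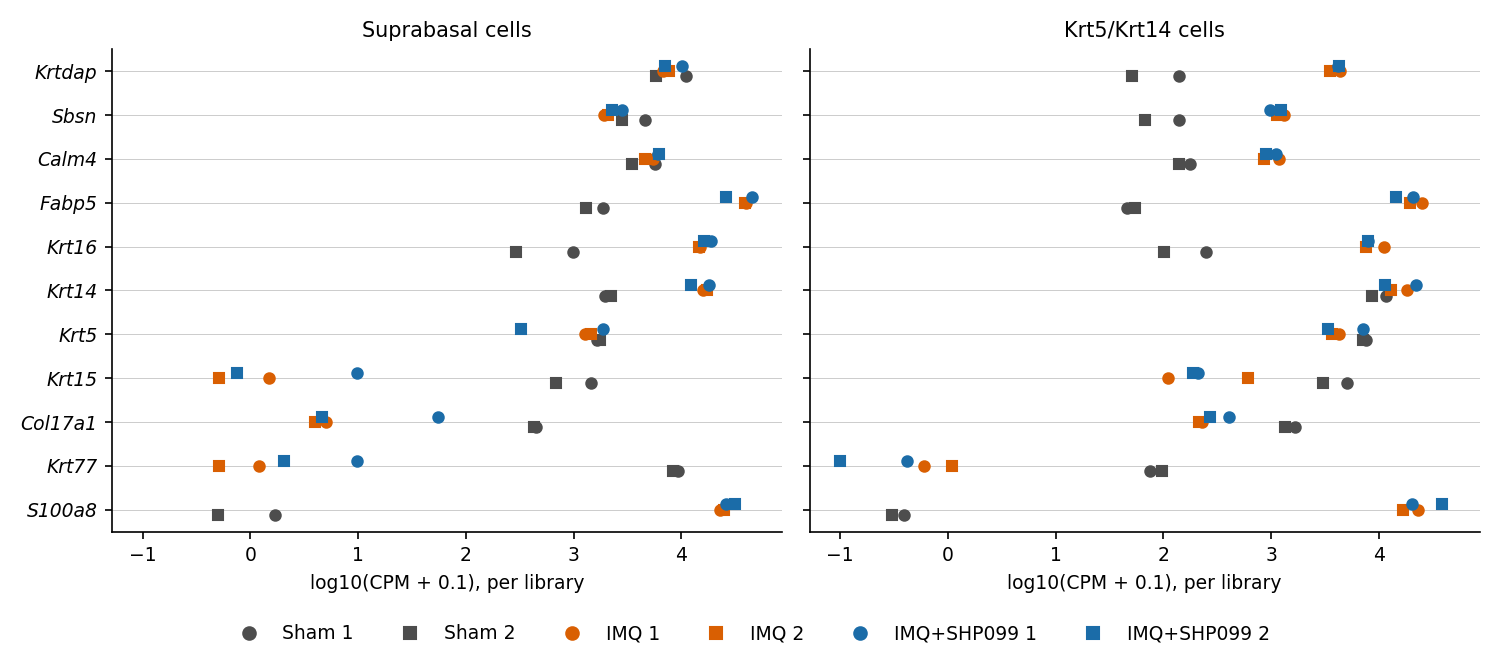
Levels of 11 genes as log10(CPM + 0.1) in suprabasal cells (left) and Krt5/Krt14 cells (right), 1 point per library. Krtdap, Sbsn, Calm4 and Fabp5 are low in the Krt5/Krt14 cells of Sham and high in those of the 4 imiquimod libraries, and Krt15 and Col17a1 fall further in the suprabasal cells than in the Krt5/Krt14 cells.

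The share of suprabasal cells differed widely between libraries of one group. It was 23.2% and 5.76% of kept cells in Sham, 4.13% and 1.44% in IMQ, with 9.42% and 1.04% in IMQ+SHP099. IMQ lay below Sham by 11.7 percentage points without overlap (exact two-sided permutation p = 0.333, the smallest possible). The gap was 2.97 points without Sham replicate 1 and 2.19 points without members with 2 UMIs of other cell types' markers. The limits on Ptprc, Mki67 and Top2a counted UMIs, and median depth was 34713 and 36945 UMIs in IMQ members against 12378 and 18188.5 in Sham. The part of depth in the shares was not tested. IMQ+SHP099 differed from IMQ by 2.44 points (exact p = 1), and by -1.74 without IMQ+SHP099 replicate 1.

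Among suprabasal and Krt5/Krt14 cells together, the suprabasal share was 38.7% and 48.2% in Sham, 50.3% and 43.3% in IMQ, with 29.7% and 36.3% in IMQ+SHP099. IMQ and Sham overlapped, with a difference of 3.37 points (exact p = 0.667) that turned to -1.38 without Sham replicate 1 and -0.156 without IMQ replicate 1. IMQ+SHP099 lay below IMQ without overlap, by 13.8 points (exact p = 0.333, again the smallest possible), and the difference turned to 4.59 points without members with 2 UMIs of other cell types' markers. The intervals of these shares for counting error were 28.0% to 31.4% and 29.8% to 43.2% with SHP099, and 46.3% to 54.3% and 38.0% to 48.7% with IMQ alone.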

How the data were processed

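The deposited files hold UMI counts per gene and cell barcode for 6 libraries (Chromium Single Cell 3′), which the authors made with Cell Ranger 3.1.0 on GRCm38 per the labels and the study's methods; the counts carry no normalization. Barcodes under 100000 UMIs, 6500 genes and 10% mitochondrial UMIs were kept, as in the study, 50850 of 55201. Doublets were not removed, and Scrublet scores served as an alternative. No clustering was used. Gene coordinates came from GENCODE vM21, and promoters from RefSeq.

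Members were summed per library, 1544582 to 27656859 UMIs. edgeR 4.0.16 (R 4.3.3) fitted all 6 sums by the quasi-likelihood method (TMM, filterByExpr, group only), and the 12 sums of both keratinocyte classes with library as a block. DESeq2 1.42.0 was an alternative. Calls had a Benjamini-Hochberg adjusted p under 0.05 over all genes tested. SE is the standard error of the log2 fold change. CPM are counts scaled to 1000000 of the TMM-scaled library size. Levels compared with collagen-expressing cells and Ptprc cells are scaled to 1000000 UMIs without TMM. Shares were compared by exact permutation, and intervals are Clopper-Pearson at 95%, for counting error only. A gene at 0 UMIs in a group was set against a floor of 3 UMIs over the group.

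Named genes were the 10 with the largest change in each direction between IMQ and Sham (adjusted p under 0.05, mean of at least 20 CPM, no overlap of libraries), the 5 in each direction for the other contrasts and for the difference between classes, the 4 most abundant and 2 most changed in each direction of each list, and the markers. Other genes named in the text as list members that were called were chosen after their values were seen. The members, the 18 lists (488 of 494 symbols found) and the tests were chosen with earlier results of these data known. Alternatives changed the limits, the normalization, the tool and the filter, used the replicate number as a block, or left out each library. Python 3.11.15 with numpy 2.4.6, scipy 1.17.1, pandas 2.3.3 and scanpy 1.11.5 were used, and the fits were tested on simulated counts. The labels did not pair the libraries by replicate number.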

Additional observations from a re-analysis of the deposited data

Results flagged for a closer look

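In 10 genes the change with imiquimod differed between the suprabasal cells and the Krt5/Krt14 cells of the same libraries (edgeR's quasi-likelihood test of the difference, values on the log2 scale, suprabasal minus Krt5/Krt14). The change was more positive in the suprabasal cells for Serpinb7 (6.87, adjusted p = 0.00443), Akr1c18 (6.38, adjusted p = 3.56e-06), Pdk4 (4.38, adjusted p = 4.40e-05), Tagln (3.82, adjusted p = 0.00385) and Gpx2 (3.29, adjusted p = 0.000835). It was more negative for Lce3d (-10.74, adjusted p = 0.00151), Sprr2i (-9.23, adjusted p = 4.62e-05), Lypd5 (-7.60, adjusted p = 6.64e-08), Alox12e (-7.43, adjusted p = 3.34e-05) and Teddm3 (-7.35, adjusted p = 2.49e-08).

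Akr1c18 moved in opposite directions: from 6.63 and 1.28 CPM in Sham to 57.3 and 106 in IMQ in the suprabasal cells, and from 54.2 and 47.2 to 14.1 and 6.96 in the Krt5/Krt14 cells. Lypd5 stayed at 38.9 and 17.8 CPM in Sham and 24.3 and 32.2 in IMQ in the suprabasal cells, while the Krt5/Krt14 cells went from 0.107 and 0.101 to 17.3 and 16.3. Serpinb7 fell in both classes and had no UMI in the Krt5/Krt14 cells of IMQ, and Lce3d had none in those of Sham, so the fitted size of both depends on the prior count. Without Sham replicate 1 the differences of Gpx2 (1.17), Lce3d (-1.30) and Sprr2i (-0.40) no longer passed, nor did that of Alox12e without IMQ replicate 2 (-0.61) or that of Lce3d by DESeq2 (-7.26). Lce3d and Sprr2i had no UMI in the suprabasal cells of Sham replicate 2. Tagln is among the markers used for pericytes and smooth muscle. The sum of these markers was 0.644 and 0.776 cp10k in Sham members and 1.83 and 2.24 in IMQ members. Over all kept cells it was 3.02 and 13.2 in Sham and 37.1 and 52.7 in IMQ. The part of such cells or their free RNA in the Tagln difference was not tested.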

How the results depend on the processing

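For IMQ compared to Sham (2446 genes called), the count was 2465 with RLE size factors, 2166 by DESeq2, 3111 with no filter and 2582 in members with Krt5 and Krt14, and leaving out 1 library gave 1171 to 2096. Of the 2446 genes, 2071 were also called by DESeq2. Removing members with 2 UMIs of other cell types' markers took out 3294 of 3827 cells, left 2375 genes to test and gave 120 calls, 184 for IMQ+SHP099 compared to Sham and 2 for IMQ+SHP099 compared to IMQ. It also moved the share of kept cells to -2.19 points for IMQ minus Sham and turned the share of both classes to 4.59 points for IMQ+SHP099 minus IMQ. With at least 100 cp10k of Krt1 and Krt10 the share of both classes was -3.08 points for IMQ minus Sham.

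For IMQ+SHP099 compared to IMQ (0 called), DESeq2 gave 9, no filter 95, and leaving out 1 library 0 to 8. For IMQ+SHP099 compared to Sham leaving out 1 library gave 1236 to 2420, and for the difference between classes 833 to 1492. Same-numbered libraries were not paired by the labels, and their deviations correlated by -0.01, 0.18 and 0.02 across genes. In each group the share of members was larger in replicate 1, and a batch common to same-numbered libraries was not tested. A block for the replicate number gave 3001 calls for IMQ compared to Sham, 27 for IMQ+SHP099 compared to IMQ and 2696 for IMQ+SHP099 compared to Sham, and the 27 held Gpx2 (adjusted p = 5.13e-06), Akr1c18 (0.000871), Nt5e (0.00123) and Cxcl9 (0.0256), all lower with SHP099, and Wnt3 (8.19e-05), Lor (0.00123), Gadl1 (0.00853) and Krt77 (0.0233), all higher.

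Among members with Krt5 and Krt14 the log2 change of IMQ compared to Sham turned to 3.45 for Lypd5, 1.56 for Elovl4, 0.74 for Alox12, 0.73 for Psapl1, 1.55 for Klk8, 1.85 for Spink5 and 2.03 for Flg. Flg was at 0.10 without members over 10 cp10k of Lor, and Cnfn at -0.31 without 2 UMIs of other markers. The cause was not tested. Depth limits genes under a few CPM, above all in IMQ+SHP099 replicate 2.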
